A study of Mus musculus with 9 samples.

Results

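The genes described here are 48 genes of the autophagy machinery, taken by name from the table of gene counts as a list that runs from the kinases that start autophagy to the receptors that bring cargo to it. The rule names the genes and uses no measured value, though the list was drawn up with earlier results of these data known. All 48 were found among the 56748 genes of the table, and all 48 passed the filter on low counts that left 13812 genes for testing. RNA-seq was performed on MLO-Y4 cells, an osteocyte-like mouse line derived from long bone of mice that carried a viral large T antigen under the osteocalcin promoter. The cells shared transwells with primary articular chondrocytes of C57BL/6J mice at 5 to 6 days of age. The control group (3 libraries) was co-cultured with chondrocytes that had received no stimulation. The other groups (3 libraries each) were kept with chondrocytes that had first been exposed to interleukin-1β (IL-1β) at 10 ng/mL for 6 h, and the co-culture lasted 24 h or 48 h. The labels name no time for the control cultures, so stimulation and time in culture cannot be told apart. The characteristics give the line of the 48 h samples as MLO-Y5, MLO-Y6 and MLO-Y7, whereas the source name and the protocols give MLO-Y4.

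Autophagy encloses cytoplasm in a membrane sac, the autophagosome, and delivers it to the lysosome for digestion. The ULK1 kinase complex, held back by the nutrient-sensing kinase complex mTORC1, starts the process, and the lipid kinase VPS34 with its partner Beclin 1 marks the site with phosphatidylinositol 3-phosphate (PI3P). Membrane is supplied by ATG9 vesicles and by the lipid transfer protein ATG2. WIPI proteins read PI3P and recruit the enzymes that attach small ubiquitin-like ATG8 proteins (the LC3 and GABARAP families) to the membrane, and receptors such as p62 or the mitophagy receptors BNIP3 and NIX tie cargo to ATG8. Osteocytes are long-lived cells embedded in bone matrix, and autophagy is among the routes by which they renew their contents. Transcript levels measure the supply of this machinery, not the rate at which autophagosomes form or are degraded.

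Total counts ran from 12250628 to 18515456 per library. Members held at least 170 counts in every library except Atg10, whose lowest count was 31, and the highest was 11928 for Sqstm1. Values are CPM, counts per 1000000 counts of the library after scaling of library sizes with TMM (trimmed mean of M values) factors of 0.9825 to 1.015, and libraries are listed in the order of replicates 1, 2 and 3. A gene was called higher or lower where its adjusted p in the edgeR fit over all tested genes was under 0.05. Of 15 chondrocyte markers, 6 (Acan, Col9a1, Col9a2, Matn1, Cnmd and Ucma) stood at 0 in all libraries and 10 stayed below 1 CPM. Their summed level was 1681.6 to 1716.4 CPM in the control, 1565.4 to 1649.2 CPM at 24 h and 2127.4 to 2216.2 CPM at 48 h, most of it from the lubricin gene Prg4. Prg4, Sox9 and Comp were called higher and Matn3 lower at 48 h than in the control, and Col11a2 was not called. This sum therefore does not stand for all markers of its list. Of 6 macrophage markers Adgre1 and Itgam were at 0 throughout and the summed level was 3.8 to 7.9 CPM. Of 12 osteocyte and osteoblast markers, the mature osteocyte genes Mepe and Fgf23 were at 0 in all libraries and Dmp1 and Sost averaged at most 0.176 CPM in any group, while Gja1, Pdpn, Phex and Col1a1 were present. The summed level of these 12 markers was 3022.8 to 3190.7 CPM in the control, 3088.1 to 3122.0 CPM at 24 h and 3890.9 to 3960.3 CPM at 48 h. Gja1 alone averaged 1498.2 CPM in the control and 2412.9 CPM at 48 h. Against control at 48 h, Gja1, Pdpn and Phex were called higher and Col1a1, Alpl, Bglap and Sp7 lower, so the sum does not stand for the list. The part of these marker levels in the results was not tested. In bulk RNA, a change in cell number and a change in RNA per cell cannot be told apart.

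After 48 h, autophagy genes differed from the control more often upward than downward. Of the 48 members 21 were called higher and 4 lower, which together is 52.1% of the members against 46.4% of all tested genes. Over all tested genes 22.0% were called higher and 24.4% lower. The share called was close to the background, and 21 of the 25 calls were upward. The median log2 fold change of the members was 0.108, and that of all tested genes was -0.002. The 3 libraries at 48 h did not overlap the 3 control libraries in 26 members, with 23 above and 3 below, where 53.1% of all tested genes did not overlap. Without control replicate 1 the members called lower numbered 2, and the members called higher were 20 to 23 whichever library was left out.

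By contrast, 24 h brought few calls. Here 3 members were called higher and 3 lower, which is 12.5% of the members against 6.15% of all tested genes (3.25% higher and 2.90% lower). The members' median was -0.001 and that of all tested genes -0.004, and 13 members did not overlap the control against 21.5% of all tested genes. The called members at 24 h were Bnip3, Bnip3l and Ddit4 in the upward direction and Map1lc3b, Gabarap and Sqstm1 in the downward direction. These counts depended on single libraries, with 6 members higher without control replicate 3 and 1 member lower without control replicate 1 or without 24 h replicate 1.

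**Figure D1:**
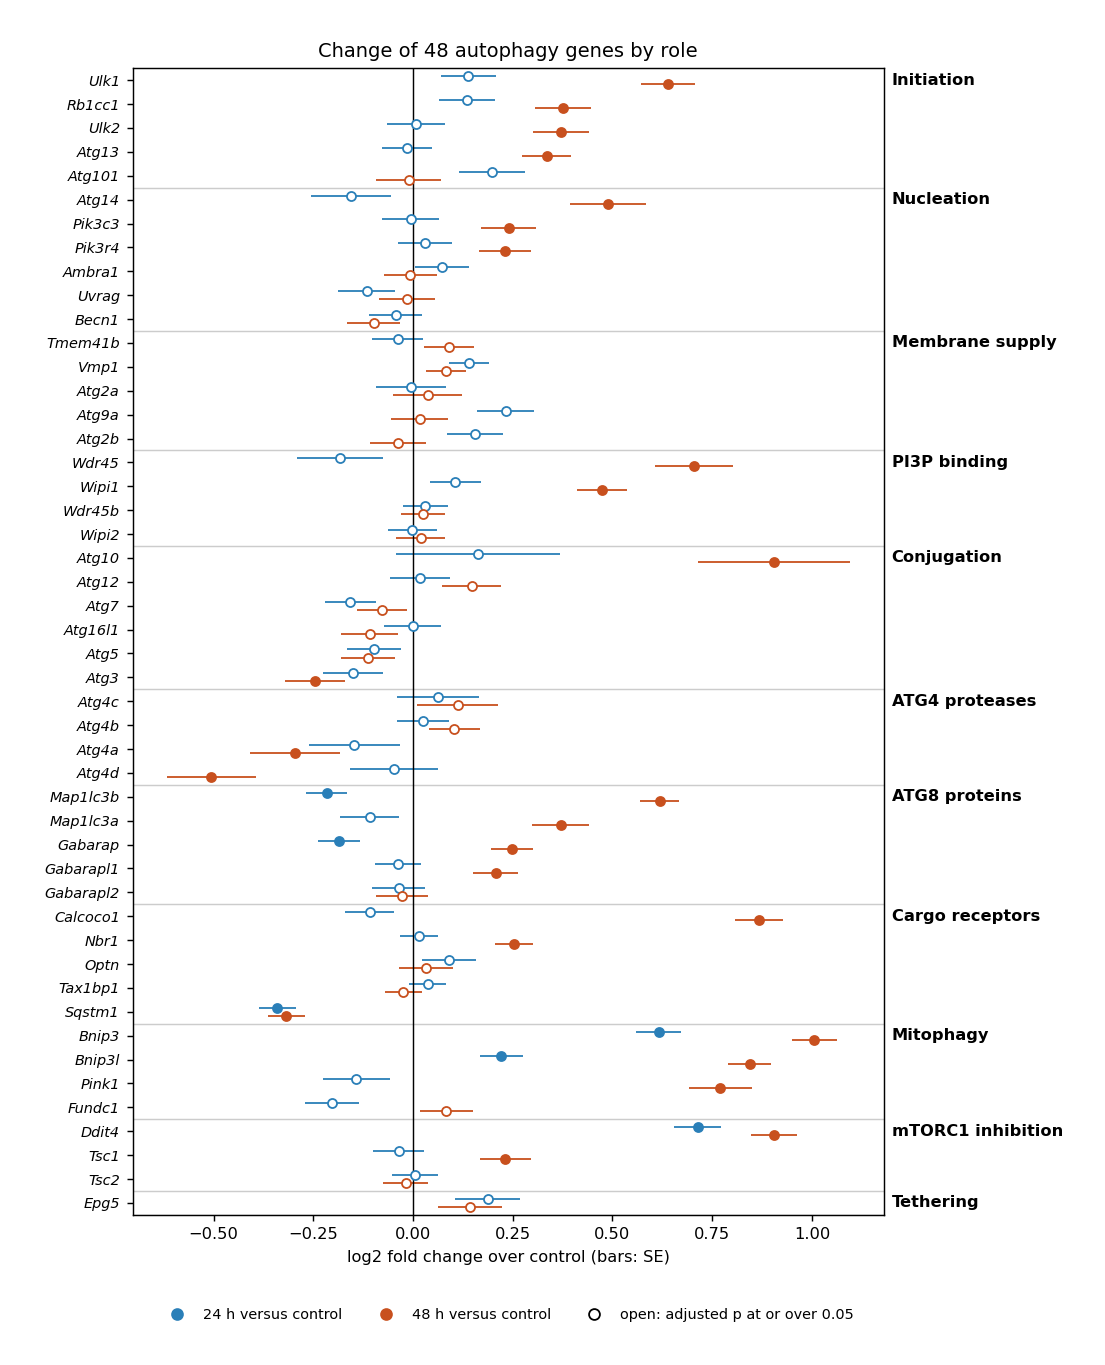
Log2 fold change over control (x axis, bars show SE) of the 48 autophagy genes, grouped by role on the y axis, with 24 h in blue and 48 h in orange; filled points have an adjusted p under 0.05 in the edgeR fit. At 48 h 21 genes are filled to the right of 0 and 4 to its left, and at 24 h 3 are filled on each side.

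The members with the largest rises at 48 h were Bnip3, Ddit4, Atg10 and Calcoco1, and the DNA upstream of these genes is shown because Bnip3 and Ddit4 are textbook targets of the hypoxia-inducible factors. These factors bind the core motif ACGTG or GCGTG, which is written in capitals below on whichever strand it lies. All 4 genes lie on the minus strand, and each sequence runs 5′ to 3′ up to the base before the start of the gene in the deposited table. The letters come from RefSeq promoter windows of an earlier mouse build and were each found exactly 1 time in GRCm39, whose coordinates are given. They are chr7:138511249-138511485 (237 bases) for Bnip3, chr10:59787657-59787842 (186 bases) for Ddit4, chr13:91372088-91372356 (269 bases) for Atg10 and chr15:102630614-102630863 (250 bases) for Calcoco1.
Bnip3: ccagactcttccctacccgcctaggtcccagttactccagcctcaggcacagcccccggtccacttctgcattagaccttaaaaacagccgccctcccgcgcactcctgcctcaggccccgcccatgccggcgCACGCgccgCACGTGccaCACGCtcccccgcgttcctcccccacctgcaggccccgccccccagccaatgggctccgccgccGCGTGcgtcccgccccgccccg
Ddit4: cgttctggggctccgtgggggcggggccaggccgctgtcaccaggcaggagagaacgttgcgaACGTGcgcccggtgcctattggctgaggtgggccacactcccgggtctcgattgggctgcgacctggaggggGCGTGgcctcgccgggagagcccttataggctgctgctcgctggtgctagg
Atg10: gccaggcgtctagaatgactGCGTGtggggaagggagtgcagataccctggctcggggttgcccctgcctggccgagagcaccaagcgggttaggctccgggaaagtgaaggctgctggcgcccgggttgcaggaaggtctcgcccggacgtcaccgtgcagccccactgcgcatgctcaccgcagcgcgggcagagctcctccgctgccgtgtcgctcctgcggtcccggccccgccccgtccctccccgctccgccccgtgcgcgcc
Calcoco1: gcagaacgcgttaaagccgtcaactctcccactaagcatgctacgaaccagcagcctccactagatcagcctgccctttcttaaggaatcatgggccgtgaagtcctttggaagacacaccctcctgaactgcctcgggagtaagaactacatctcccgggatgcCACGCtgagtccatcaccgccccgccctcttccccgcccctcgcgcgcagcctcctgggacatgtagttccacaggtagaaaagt

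The Bnip3 sequence held 5 matches. ACGTG occurred on both strands of a single CACGTG, at 95 and 94 bases before the gene start, and GCGTG occurred at 104, 86 and 22 bases. Ddit4 held ACGTG at 123 bases and GCGTG at 51 bases. Atg10 and Calcoco1 held GCGTG only, at 249 and 85 bases respectively. Across the whole windows of the RefSeq table, from 250 bases before to 50 bases after the gene start and on both strands, 39 of the 48 members had an entry. ACGTG was found in 17 of these 39 (43.6%), in 29.7% of the 9893 tested genes with an entry and in 21.8% of all 27025 genes of the table. GCGTG was found in 28 (71.8%), against 56.4% of tested genes and 35.2% of all genes. At least 1 of these motifs was present in 36 of the 39 members (92.3%), against 68.1% of tested genes and 46.7% of all genes. CACGTG, which overlaps ACGTG and is the core of the sites bound by TFEB, a regulator of autophagy and lysosome genes, was found in 5 members (12.8%), against 11.7% of tested genes and 8.09% of all genes. Base composition was not matched, and a match describes letters in a window, not binding.

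Levels of different genes were compared per kilobase of gene length. In the control, Sqstm1 was the most abundant member at 224.1 CPM per kb ± 12.9 (SD, n = 3), followed by Gabarap at 138.5 ± 7.49 and Ddit4 at 61.4 ± 2.27. At the lower end were Atg14 at 4.15 CPM per kb ± 0.102 (SD, n = 3), Atg4d at 2.27 ± 0.0791 and Atg10 at 1.60 ± 0.235.

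Upstream of autophagy, the inhibitors of mTORC1 were represented by 3 members, of which 2 were called higher at 48 h. This is 66.7% called against 46.4% of all tested genes (22.0% higher and 24.4% lower). Counts in role groups this small were not tested. Ddit4 (chromosome 10, 59785491 to 59787656) encodes REDD1, a stress-induced inhibitor of mTORC1. It stood at 104, 108 and 112 CPM in the control libraries, at 181, 165 and 185 CPM at 24 h and at 196, 196 and 213 CPM at 48 h. Every library with stimulated chondrocytes lay above every control library at either time, and the 48 h libraries lay above those at 24 h. Compared with the control it was higher by 0.71 on the log2 scale (SE 0.06, adjusted p 2.23e-07) at 24 h and 0.90 (SE 0.06, adjusted p 5.64e-10) at 48 h, so most of the difference at 48 h was already present at 24 h. The direct comparison of 48 h with 24 h gave 0.19 (adjusted p 0.00881), a call that was lost without 24 h replicate 2 (adjusted p 0.0507) or 48 h replicate 3 (0.0556). Tsc1, a subunit of the complex that switches off the mTORC1 activator RHEB, had 0.23 (SE 0.06, adjusted p 0.00577) at 48 h, and its partner Tsc2 was not called.

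Of the 5 genes of the ULK1 complex and its kinases 4 were called higher at 48 h, or 80% against 46.4% of all tested genes called. Ulk1 (chromosome 5, 110932354 to 110957963), the kinase itself, read 67.4, 65.2 and 66.8 CPM in the control, 72.6, 67.0 and 80.2 CPM at 24 h, and 102, 97.6 and 111 CPM at 48 h. The control and 24 h ranges overlapped, and the 48 h libraries stood apart from both. On the log2 scale it differed from the control by 0.14 at 24 h (SE 0.07, adjusted p 0.300) and by 0.64 at 48 h (SE 0.07, adjusted p 4.1e-07). The scaffold gene Rb1cc1 (FIP200) had 0.38 (adjusted p 0.000217), the related kinase gene Ulk2 had 0.37 (adjusted p 0.000277) and the regulatory subunit Atg13 had 0.33 (adjusted p 0.00019) at 48 h, each without overlap with the control. Atg101, which stabilises ATG13, was not called against control. It was called lower at 48 h than at 24 h (log2 fold change -0.21, adjusted p 0.0375), and that call was lost under 9 of the alternatives tried besides the stricter threshold of 0.01.

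In the nucleation group 3 of 6 members were called higher at 48 h, and all 3 belong to the VPS34 complex that starts autophagosomes. The share called was 50%, near the 46.4% of all tested genes. Atg14 (chromosome 14, 47778350 to 47808106) encodes the subunit that directs this complex to autophagosome formation. Its libraries read 17.6, 17.8 and 18.4 CPM in the control, 16.6, 14.3 and 17.5 CPM at 24 h, and 23.2, 27.9 and 24.5 CPM at 48 h. The 24 h libraries all lay below the control, though the difference was not called (log2 fold change -0.16, SE 0.10, adjusted p 0.448), and those at 48 h lay above it (0.49, SE 0.09, adjusted p 0.000331). The catalytic subunit Pik3c3 (VPS34) and its regulatory partner Pik3r4 (VPS15) had 0.24 (adjusted p 0.00836) and 0.23 (adjusted p 0.00795). The call of Pik3c3 was lost without 48 h replicate 3 (adjusted p 0.0504). Becn1, encoding Beclin 1, had -0.10 (adjusted p 0.241), and Uvrag, a partner of VPS34 in endosomal and autophagosomal traffic, and Ambra1, a regulator of Beclin 1, were not called either.

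In the membrane supply group edgeR called 0 of 5 members against control at either time, and DESeq2 called 0 as well. Over all tested genes edgeR called 6.15% at 24 h and 46.4% at 48 h. Below an unadjusted p of 0.05 were 3 members at 24 h, all higher, and 0 at 48 h. The member with the largest change at 48 h was Tmem41b (chromosome 7, 109571394 to 109586136), a lipid scramblase of the endoplasmic reticulum. It read 57.6, 57.3 and 60.4 CPM in the control, 58.1, 57.3 and 55.2 CPM at 24 h, and 57.4, 63.5 and 65.7 CPM at 48 h. All 3 groups overlapped, with a log2 change of 0.09 at 48 h (SE 0.06, adjusted p 0.256). Vmp1, a second such scramblase, had changes of 0.14 and 0.08 at 24 h and 48 h (adjusted p 0.114 and 0.195) and was called at both times when control replicate 2 was left out (adjusted p 0.0328 and 0.0387). Atg9a, the scramblase of the vesicles that seed the autophagosome, and Atg2b, a lipid transfer protein, were lower at 48 h than at 24 h (log2 fold changes -0.22, adjusted p 0.0162, and -0.19, adjusted p 0.0272), without a call against control. Without control replicate 3 both were called higher at 24 h than in the control, Atg9a with 0.28 (adjusted p 0.0264, against 0.23 and 0.0646 with all libraries) and Atg2b with 0.24 (adjusted p 0.0199, against 0.16 and 0.238). The call of Atg9a between times was lost without 24 h replicate 1 (adjusted p 0.078), 48 h replicate 1 (0.0581) or 48 h replicate 2 (0.0607), and that of Atg2b without any 1 of several libraries, with adjusted p values up to 0.133.

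Of the 4 PI3P-binding proteins 2 were called higher at 48 h, or 50%, near the 46.4% of all tested genes called. Wdr45 (chromosome X, 7580572 to 7594445) encodes WIPI4, which works with ATG2. It read 15.8, 16.8 and 13.1 CPM in the control, 12.6, 14.1 and 13.5 CPM at 24 h, and 23.9, 26.8 and 23.8 CPM at 48 h. The control and 24 h libraries overlapped (log2 fold change -0.18, SE 0.11, adjusted p 0.386), and the 48 h libraries all lay higher (0.70, SE 0.10, adjusted p 1.15e-05). Wipi1 rose by 0.47 (SE 0.06, adjusted p 6.29e-06) on the log2 scale at 48 h. Wipi2, which recruits the ATG16L1 complex, and Wdr45b (log2 fold change 0.03, adjusted p 0.742) were not called.

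The enzymes that attach ATG8 proteins to lipid showed 1 call in each direction among 6 members at 48 h. This is 33.3% called against 46.4% of all tested genes. Atg10 (chromosome 13, 91083475 to 91372087), the E2-like enzyme that joins ATG12 to ATG5, rested on the lowest counts of all members. It read 3.14, 2.78 and 2.33 CPM in the control, 2.74, 3.71 and 2.82 CPM at 24 h, and 4.91, 5.57 and 5.07 CPM at 48 h. Only at 48 h did the libraries separate from the control (log2 fold change 0.90, SE 0.19, adjusted p 0.000733), and the SE was the largest among the members. Atg3, the E2-like enzyme that attaches ATG8 itself, went the other way with -0.25 (SE 0.07, adjusted p 0.011), and this call was lost without control replicate 1 (-0.14, adjusted p 0.135). The E1-like enzyme Atg7 had -0.08 (adjusted p 0.332), Atg5 had -0.11 (adjusted p 0.180), its partner Atg16l1 had -0.11 (adjusted p 0.224) and Atg12 had 0.15 (adjusted p 0.112). Atg12 was called without control replicate 2 (adjusted p 0.0378).

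The ATG4 proteases, which trim ATG8 precursors and free ATG8 from lipid, held 2 of the 4 members called lower at 48 h. Within the group 50% were called, near the 46.4% of all tested genes. Atg4d (chromosome 9, 21176589 to 21189068) read 16.4, 17.1 and 15.9 CPM in the control, 16.8, 16.9 and 14.0 CPM at 24 h, and 13.4, 10.9 and 10.5 CPM at 48 h. The control and 24 h libraries overlapped, and the 48 h libraries lay below both. The log2 fold change at 48 h was -0.51 (SE 0.11, adjusted p 0.00108). Kri1, a gene on the opposite strand that shares 4316 bases with Atg4d, was also lower at 48 h (log2 fold change -0.36), and the sources used here do not say whether counting used the strand, so the counts of this pair cannot be told apart with certainty. Atg4a had -0.30 (SE 0.11, adjusted p 0.0401) with overlapping libraries. Besides the stricter threshold of 0.01, its call was lost under 10 of the alternatives tried, among them DESeq2 (adjusted p 0.0749), and without control replicate 1 the log2 fold change was -0.18 (adjusted p 0.255). Atg4b had 0.10 (adjusted p 0.199) and Atg4c had 0.11 (adjusted p 0.387).

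Of the 5 ATG8 genes 2 were called lower at 24 h and 4 higher at 48 h. This is 40% called against 6.15% of all tested genes at 24 h, and 80% against 46.4% at 48 h. Map1lc3b (chromosome 8, 122317100 to 122325499) encodes LC3B, the protein used most widely to count autophagosomes. It read 154, 152 and 147 CPM in the control, 127, 131 and 132 CPM at 24 h, and 231, 241 and 223 CPM at 48 h. No group overlapped another, with 24 h lowest and 48 h highest. In log2 units the change was -0.22 at 24 h (SE 0.05, adjusted p 0.0128) and 0.62 at 48 h (SE 0.05, adjusted p 1.11e-08). The call at 24 h was lost without 24 h replicate 1 (adjusted p 0.0898) or control replicate 1 (0.0602), and the call at 48 h held under all alternatives run. Zcchc14, which shares 58 bases with Map1lc3b on the opposite strand, was not called at either time.

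Gabarap (chromosome 11, 69881969 to 69885777), which acts late in autophagosome closure and fusion, followed the same order. It read 258, 268 and 241 CPM in the control, 223, 230.2 and 221 CPM at 24 h, and 314, 309 and 287 CPM at 48 h. The groups again did not overlap, with the log2 change being -0.18 (SE 0.05, adjusted p 0.0414) at 24 h and 0.25 (SE 0.05, adjusted p 0.00068) at 48 h. The call at 24 h was close to the threshold and was lost under most alternatives, with adjusted p values of 0.0511 to 0.177. Map1lc3b and Gabarap were the members called in opposite directions at 24 h and 48 h, which is 2 of 48 members, where 1.67% of all tested genes were. Both comparisons use the same control libraries. At 48 h, Map1lc3a had 0.37 (SE 0.07, adjusted p 0.00035) and Gabarapl1 had 0.21 (SE 0.06, adjusted p 0.00594), and neither was called at 24 h (-0.11, adjusted p 0.479, and -0.04, adjusted p 0.799). Gabarapl2 was not called in any comparison.

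**Figure D2:**
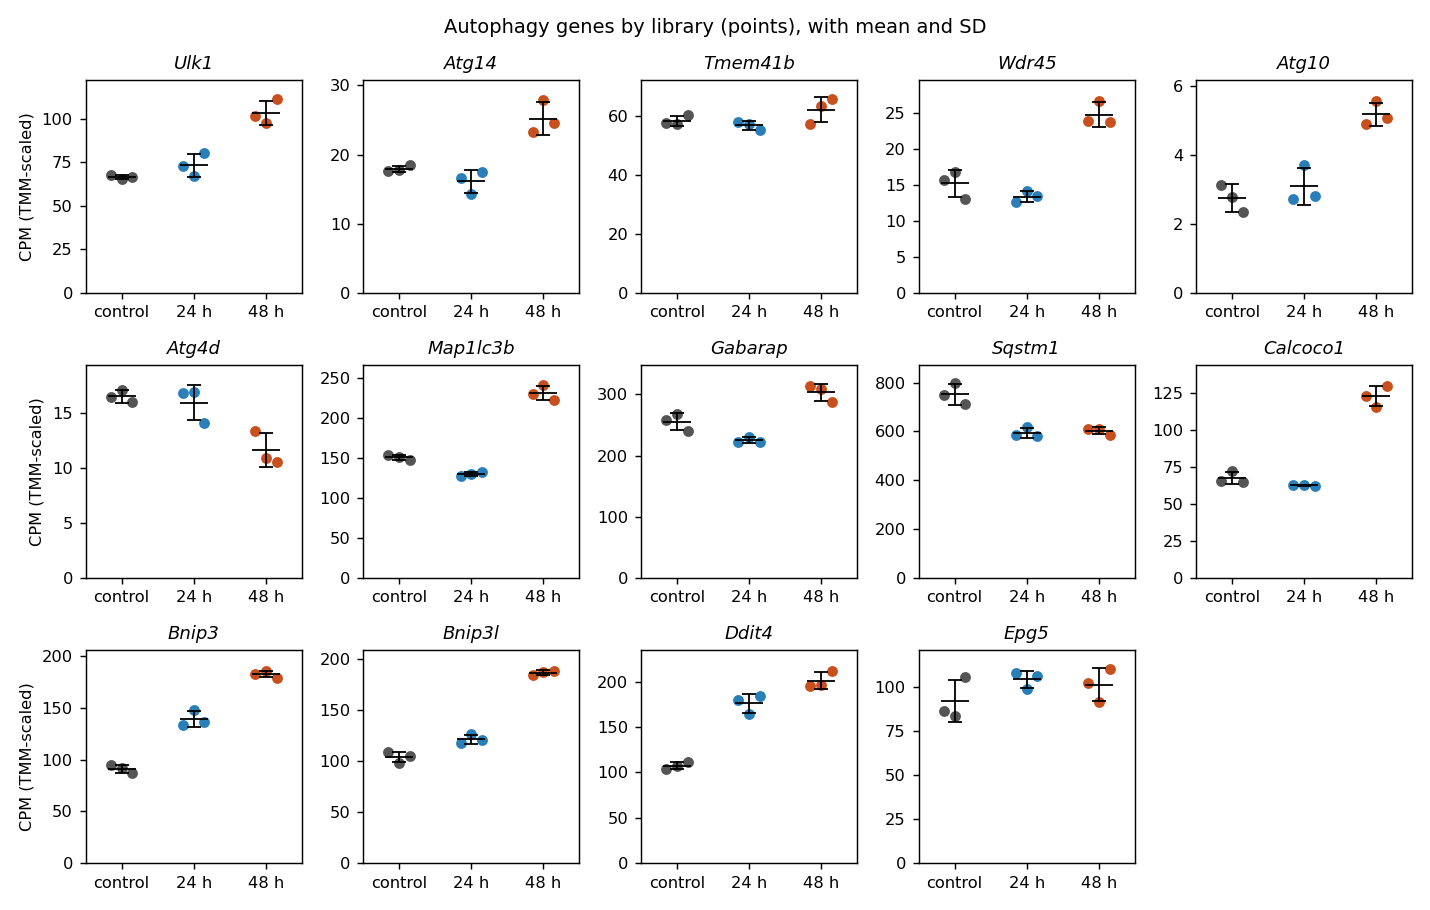
CPM after TMM scaling (y axes, from 0) of the 14 members described library by library, in control, 24 h and 48 h cultures (x axes); points are libraries, and the bar and whiskers are the mean and SD of 3. Map1lc3b and Gabarap are lowest at 24 h and highest at 48 h, Bnip3 and Ddit4 are above control at both times, and Sqstm1 is below control at both.

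The cargo receptors split, with 2 of 5 called higher and 1 lower at 48 h, or 60% against 46.4% of all tested genes called. Sqstm1 (chromosome 11, 50090193 to 50101654) encodes p62, which binds ubiquitinated proteins and LC3. It read 749, 797 and 711 CPM in the control, 586, 616 and 579 CPM at 24 h, and 612, 611 and 587 CPM at 48 h. Both stimulated groups lay below the control and overlapped each other. The fitted log2 changes were -0.34 at 24 h (SE 0.05, adjusted p 8.96e-05) and -0.32 at 48 h (SE 0.05, adjusted p 1.75e-05), and 48 h against 24 h gave 0.02 (adjusted p 0.713). Sqstm1 was the only member called lower at both times.

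Calcoco1 (chromosome 15, 102615212 to 102630613), a receptor for the autophagy of endoplasmic reticulum and Golgi membrane, read 65.9, 72.2 and 64.8 CPM in the control, 62.6, 62.8 and 62.5 CPM at 24 h, and 124, 116 and 130.1 CPM at 48 h. The 24 h libraries all lay slightly below the control without a call (log2 fold change -0.11, SE 0.06, adjusted p 0.375), and those at 48 h lay well above it (0.87, SE 0.06, adjusted p 1.59e-09). The difference between 48 h and 24 h, 0.98 (adjusted p 3.07e-10), was the largest of any member. Nbr1, a receptor related to p62, had 0.25 (SE 0.05, adjusted p 0.00029) at 48 h. Optn, encoding the receptor optineurin, had 0.03 (adjusted p 0.728), and Tax1bp1, a relative of CALCOCO1, was not called.

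The mitophagy group held the largest rise of all members, and 3 of its 4 genes were called higher at 48 h. This is 75% called against 46.4% of all tested genes. Bnip3 (chromosome 7, 138492565 to 138511248), whose protein sits in the outer mitochondrial membrane and binds LC3, read 94.5, 91.5 and 86.5 CPM in the control, 134, 148 and 137 CPM at 24 h, and 183, 186 and 179 CPM at 48 h. The 3 groups did not overlap and rose in the order control, 24 h and 48 h. The means of control and 48 h libraries, 90.8 CPM ± 4.02 and 182.5 CPM ± 3.17 (SD, n = 3 each), differed 2.01-fold. Bnip3 exceeded the control by 0.62 at 24 h (log2, SE 0.06, adjusted p 8.37e-07) and by 1.01 at 48 h (SE 0.06, adjusted p 8.2e-11), and it rose further between these times by 0.39 (adjusted p 8.88e-06).

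Bnip3l (chromosome 14, 67222688 to 67246326), which encodes the related receptor NIX, read 108, 98.2 and 105 CPM in the control, 117, 126 and 120.0 CPM at 24 h, and 184, 187 and 188 CPM at 48 h. Its groups did not overlap either. It exceeded the control by 0.22 at 24 h (log2, SE 0.05, adjusted p 0.0182) and by 0.84 at 48 h (SE 0.05, adjusted p 5.35e-10), so that, unlike Bnip3, most of its rise came after 24 h. The call at 24 h was lost without 24 h replicate 2 (adjusted p 0.0781) or replicate 3 (0.0539), and in a fit of only these groups (0.0554). A pseudogene named Bnip3l-ps held 1409 reads over all libraries, or 7.205% of the 19557 of Bnip3l, and the sources used here do not say how reads matching both were counted.

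Pink1, the kinase that marks damaged mitochondria for ubiquitin-dependent mitophagy, averaged 32.3 CPM ± 2.62 (SD, n = 3) in the control, 29.3 CPM ± 2.94 at 24 h and 55.2 CPM ± 2.48 at 48 h. It was called at 48 h only (0.77, SE 0.08, adjusted p 2.55e-07), with -0.14 (adjusted p 0.396) at 24 h. Fundc1, a receptor of hypoxic mitophagy, had changes of -0.20 and 0.08 at 24 h and 48 h (adjusted p 0.0901 and 0.322), and was called between the times (0.29, adjusted p 0.0015).

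Epg5, which tethers autophagosomes to late endosomes and lysosomes, was not called. It read 86.1, 83.6 and 105 CPM in the control, 108, 99.0 and 106 CPM at 24 h, and 102, 91.4 and 109.9 CPM at 48 h. The control overlapped the stimulated groups because its replicate 3 lay among their libraries, and the 24 h and 48 h groups overlapped each other. Fitted log2 changes were 0.19 at 24 h (SE 0.08, adjusted p 0.220) and 0.14 at 48 h (SE 0.08, adjusted p 0.163). Without control replicate 3 both were called, with 0.30 (adjusted p 0.00716) and 0.27 (adjusted p 0.00367).

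**Figure D3:**
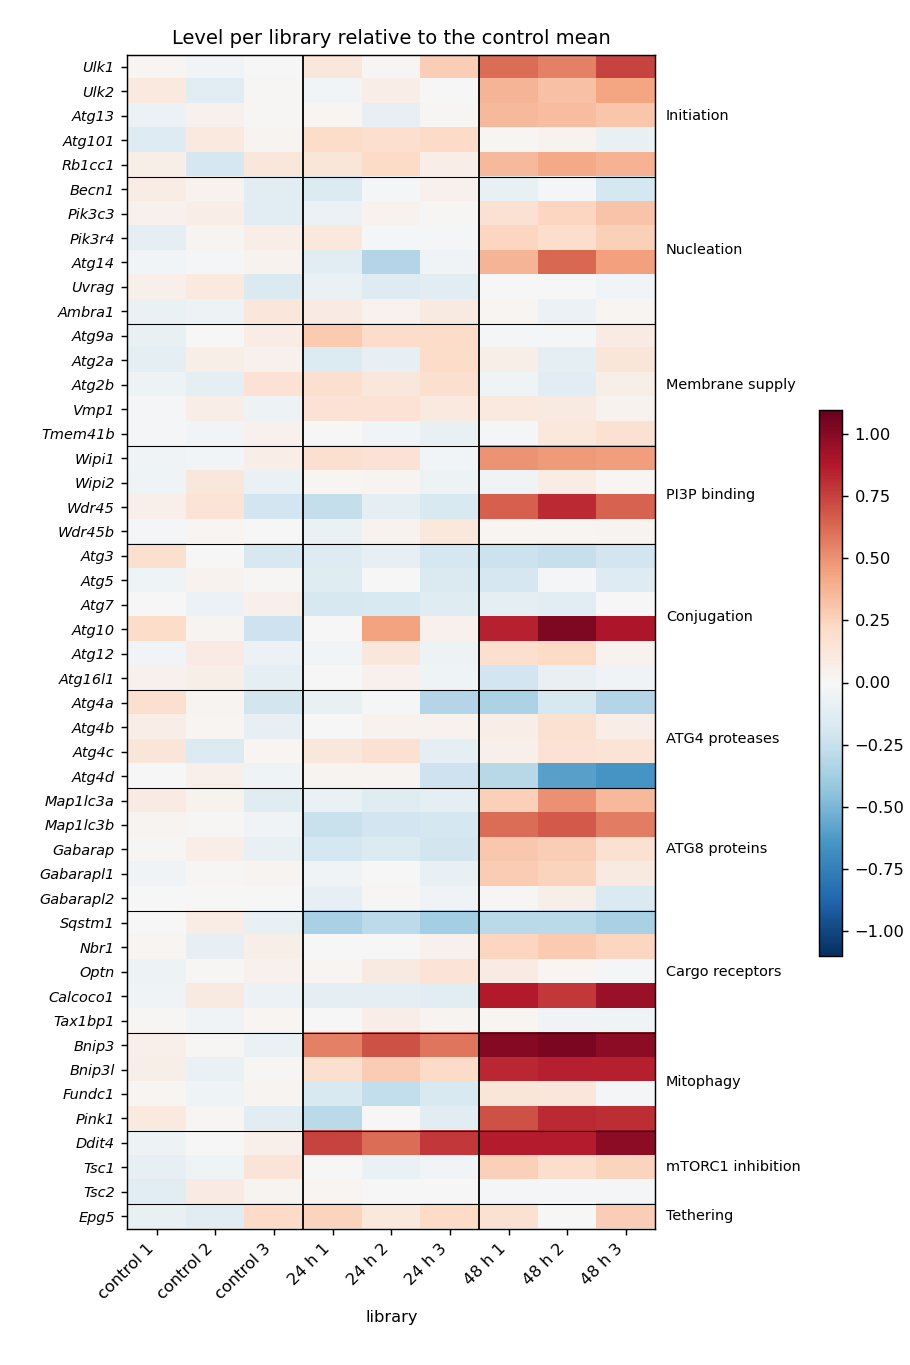
Log2 CPM minus the control mean for the 48 autophagy genes (rows, grouped by role) in the 9 libraries (columns); red is above and blue below the control mean. Bnip3 and Ddit4 are red in all 24 h and 48 h libraries, Calcoco1, Pink1 and Wdr45 turn red at 48 h, and Sqstm1 is blue in all 24 h and 48 h libraries.

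The times were also compared with each other directly, without the control. Here 22 members were called higher and 4 lower at 48 h than at 24 h, which together is 54.2% of the members against 49.1% of all tested genes (23.7% higher and 25.4% lower). The members' median was 0.115 and that of all tested genes -0.002. In 33 members the libraries of both times were separate, as they were in 59.4% of all tested genes. The largest differences after Calcoco1 were those of Pink1 (0.91), Wdr45 (0.89), Map1lc3b (0.84) and Atg10 (0.74). The 4 lower members were Atg4d (-0.46), Atg9a, Atg101 and Atg2b. Their number was 1 without 24 h replicate 1, 48 h replicate 1 or 48 h replicate 2, and 2 without 24 h replicate 2 or 24 h replicate 3. A joint test of the 3 groups called 26 members, against 51.9% of all tested genes.

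Other genes of the pathway that are not among the 48 members were taken from 5 lists with 64 genes, of which 62 were tested. At 48 h 15 were called higher and 15 lower, or 48.4% against the background of 46.4%, and their median log2 fold change was -0.002. Calls in these lists were thus even between the directions. The list of the TFEB and FOXO axis, which controls transcription of autophagy genes, also holds proteins that are not transcription factors. It came out with 7 of 10 higher and 1 lower and a median of 0.441. This is 80% called against 46.4% of all tested genes. Of its transcription factors, Mitf (0.52, adjusted p 6.35e-06) and Foxo3 (0.50, adjusted p 1.08e-06) were called higher and Foxo1 lower (-0.26, adjusted p 0.00163). Tfeb (0.11) and Tfe3 (-0.10) were not called. Trp53inp2, which carries LC3 out of the nucleus, was at 54.6 CPM ± 2.03 in control and 98.8 CPM ± 4.79 in 48 h libraries (SD, n = 3 each), higher by 0.86 on the log2 scale (adjusted p 2.23e-09). The folliculin partner Fnip2 had 0.79 (adjusted p 8.32e-08) and the LC3-binding stress protein Trp53inp1 had 0.60 (adjusted p 9.89e-05).

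Regulators of mTORC1 and AMPK, activators and inhibitors alike, numbered 19, with 3 higher and 6 lower at 48 h and a median of -0.052. This is 47.4% called against 46.4% of all tested genes. The higher genes besides sestrins were Deptor alone, and the lower ones were Rptor, Akt1s1, Rheb, Rraga and Castor1. The sestrins, which restrain mTORC1 when amino acids are short, diverged. Sesn3 rose by 1.29 (adjusted p 1.13e-09) and Sesn1 by 0.92 (adjusted p 1.01e-09) on the log2 scale, and Sesn2 went to -0.40 (adjusted p 0.000363). In the list of other mitophagy factors 3 of 7 tested genes were lower and the others were not called. This is 42.9%, near the 46.4% called over all tested genes. The lower genes were Phb2, an inner membrane receptor, at -0.48 (adjusted p 6.43e-06), the fusion protein Mfn2 at -0.32 (adjusted p 0.000162) and the transport adaptor Rhot1 at -0.25 (adjusted p 0.00117). Their direction was opposite to that of Bnip3, Bnip3l and Pink1.

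Other receptors gave 2 higher and 1 lower of 8, or 37.5% against 46.4% of all tested genes, led by the reticulophagy receptor Retreg1 (0.48, adjusted p 1.16e-05). The calls of Rtn3 (0.13) and Ncoa4 (-0.17), receptors for reticulum tubules and ferritin, were lost under many alternatives. In the list of fusion and further factors 3 of 18 were higher and 4 lower, or 38.9% against 46.4% of all tested genes. The higher genes were the autophagosomal SNARE gene Stx17 (0.36, adjusted p 0.000267), Tecpr1 (0.35, adjusted p 0.00104) and Plekhm1 (0.30, adjusted p 0.000503). Tecpr1 and Plekhm1 encode adaptors for fusion with lysosomes. The lower genes were Ykt6 (-0.30, adjusted p 0.000177), Ei24 (-0.30, adjusted p 0.00555), Vps33a (-0.20, adjusted p 0.00596) and Rab7 (-0.15, adjusted p 0.0104).

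At 24 h 1 gene of these lists was called higher and 5 lower, or 9.68% against the background of 6.15%, and they are named here after their values were seen. Foxo3, a transcription factor for autophagy genes, had 0.21 (adjusted p 0.0349). The lower genes were Flcn, encoding folliculin (-0.39, adjusted p 0.000486), Sesn1 (-0.36, adjusted p 0.00155), the tethering subunit Vps41 (-0.27, adjusted p 0.0109), Fnip2 (-0.27, adjusted p 0.0412) and the mTORC1 adaptor Rragc (-0.23, adjusted p 0.0157). Of these, Flcn, Fnip2 and Sesn1 were called higher at 48 h. Over all tested genes 1.67% were called in opposite directions at 24 h and 48 h, and both comparisons use the same control libraries. The call of Foxo3 was lost in a fit of only these 2 groups (adjusted p 0.0631), as were those of Fnip2 (0.0924) and Rragc (0.0547), and that of Vps41 was lost without 24 h replicate 3 (0.0883). Lower genes numbered 3 without control replicate 1 and 2 without 24 h replicate 3, and higher genes numbered 4 without control replicate 3 and 0 without any 1 of 6 others (control replicates 1 and 2, 24 h replicates 1, 2 and 3, and 48 h replicate 2).

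**Figure D4:**
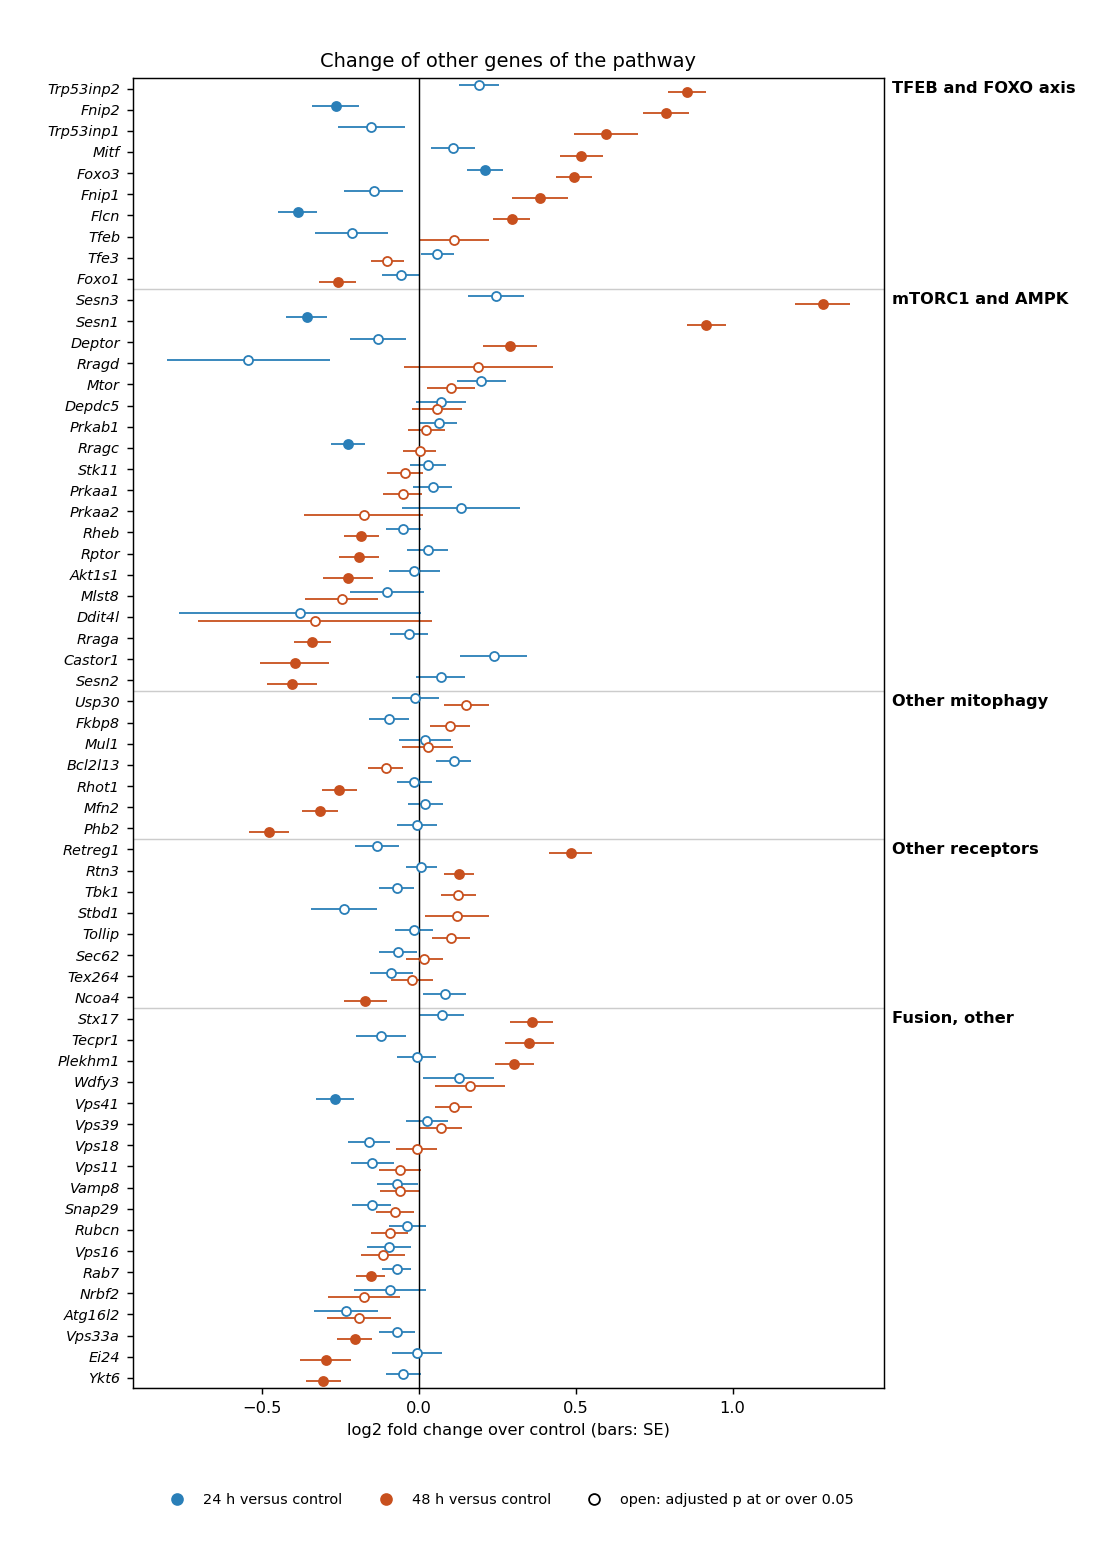
Log2 fold change over control (x axis, bars show SE) of the 62 tested genes of the 5 further lists, grouped by list on the y axis, with 24 h in blue and 48 h in orange; filled points have an adjusted p under 0.05 in the edgeR fit. At 48 h 7 of 10 genes of the TFEB and FOXO axis are filled to the right of 0 and 1 to its left, and 3 of 7 further mitophagy genes are filled to its left. Over all tested genes 46.4% were called at 48 h.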

How the data were processed

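RNA of MLO-Y4 cells in 9 libraries was sequenced in pairs of reads from directional libraries. The deposited file of the authors holds unnormalized read counts for each gene, made, per the labels and methods, with HISAT2 and featureCounts on GRCm39. The methods also name RSEM, the sources differ on the sequencer and the featureCounts version, and strand use and the treatment of reads with several matches are not given in the sources used here. Gene length and gene positions were taken from the deposited table, and GRCm39 served to place promoters.

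The counts were analysed as deposited with edgeR 4.0.16 (limma 3.58.1, R 4.3.3). The filterByExpr minimum count of 10 kept 13812 of 26232 genes with reads, holding 99.9% of reads. All 9 libraries entered 1 quasi-likelihood fit on group with TMM scaling and 6 residual degrees of freedom, and p-values were adjusted over all tested genes by the Benjamini-Hochberg method. SE was derived from the fold change and the F statistic. Groups and replicate numbers came from the labels. Nothing states that replicates were separate cultures, so p-values measure the spread between these samples, which may be technical. No libraries of a group agreed within sampling noise (chi-square per degree of freedom 2.32 to 8.83). Overlapping and near-identical genes have uncertain counts.

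The members and lists were chosen with earlier results of these data known. Values of every library are given for the member of each role with the largest absolute change at 48 h (with 5 CPM or more on average in control or 48 h), for every member called at 24 h, and for members called in opposite directions. Further lists give at most 3 called genes each by rule, and other genes named from them were added after their values were seen. Directions of single markers were also added then. Pink1 means were added after its values were seen. Alternatives were DESeq2 1.42.0, its size factors in edgeR, library size only, no filter, the replicate number as a block, only the groups compared, thinning to the smallest library, an adjusted p under 0.01 and each library left out. The procedure was tested on simulated data. Protein sequences were not used here. A result for 1 further gene is not reported here.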

Additional observations from a re-analysis of the deposited data

Results flagged for a closer look

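For 26 members the change over control at 48 h differed from the change at 24 h, by the direct edgeR test of 48 h against 24 h in which the control cancels. The difference (log2) was positive for Calcoco1 (0.98), Pink1 (0.91), Wdr45 (0.89), Map1lc3b (0.84), Atg10 (0.74), Atg14 (0.64), Bnip3l (0.62), Ulk1 (0.50), Map1lc3a (0.48), Gabarap (0.43), Bnip3 (0.39), Wipi1 (0.37), Ulk2 (0.36), Atg13 (0.35), Fundc1 (0.29), Tsc1 (0.27), Pik3c3 (0.25), Gabarapl1, Rb1cc1 and Nbr1 (0.24 each), Pik3r4 (0.20) and Ddit4 (0.19). It was negative for Atg2b (-0.19), Atg101 (-0.21), Atg9a (-0.22) and Atg4d (-0.46). Over all tested genes 49.1% met the same test. Groups of 3 libraries are too small for the check of single outlying samples, and all columns of counts were used.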

How the results depend on the processing

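The numbers of members called higher at 48 h, against control (20 to 23) and against 24 h (20 to 23), stayed near 21 and 22 under all alternatives. The numbers called lower were less stable. Against control at 48 h, 4 became 2 at an adjusted p under 0.01 and 2 to 4 when single libraries were left out. For 48 h against 24 h, 4 became 2 with library size only, 1 at an adjusted p under 0.01 and 1 to 4 without single libraries, and the median of 0.115 became 0.154 with library size only and 0.148 after thinning. At 24 h the 3 lower members became 1 at an adjusted p under 0.01 and 1 to 4 without single libraries, and the 3 higher members became 2 to 6. Apart from the stricter threshold, every alternative kept 20 of the 21 higher and 2 of the 4 lower members at 48 h, 2 of 3 higher and 1 of 3 lower members at 24 h, and 20 of 22 higher and 1 of 4 lower members between the times. For the further genes at 24 h, where the alternatives were chosen after seeing the data, the 1 higher gene became 0 with library size only, 3 without the filter, 2 with the replicate block, 0 with only the groups compared, 0 at an adjusted p under 0.01 and 0 to 4 without single libraries. The 5 lower genes became 3 with only the groups compared, 2 at an adjusted p under 0.01 and 2 to 7 without single libraries. Without single libraries, Atg4d at 24 h ranged from -0.088 to 0.036 (log2, positive without 24 h replicate 3), and Epg5 between the times from -0.105 to 0.023 (positive without 48 h replicate 2). Besides these, members without a call that changed sign numbered 10 at 48 h, 15 at 24 h and 7 between the times, at log2 fold changes of -0.044 to 0.064. Apart from the alternatives named for each, the cause was not tested.

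Deviations of same-numbered libraries had correlations of -0.0493 to 0.0775, against -0.097 to 0.0949 for libraries of different numbers. No shared deviation by replicate number was seen, which does not show whether the cultures were paired. The replicate block gave 21 higher and 4 lower members at 48 h, 3 and 3 at 24 h, and 22 and 4 between the times, 28 against 26 in the joint test, and 6468 against 6408, 958 against 849 and 6810 against 6782 calls over all genes. At 3 libraries a group, small changes of low genes such as Atg10 are the least precise, and a missed call does not show that levels were equal.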
